A study of Mus musculus with 2 samples.

Results

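The cholesterol and lipid synthesis genes described here are 35 of the 28692 genes in the deposited matrices, each found by its symbol in both libraries. They were selected on their measured values, since their levels over cell classes in these same libraries were known when they were listed, so their pattern over classes is a description that no test supports. By role they are 8 enzymes of the mevalonate pathway, 12 enzymes that turn its products into sterols, 5 regulators, 5 enzymes of fatty acid synthesis and 5 genes of sterol transport and storage. The first 20, from Acat2 to Dhcr7 in the order of the pathway, are called the synthesis genes.

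The cells came from the ventral parafacial region of the brainstem of C57BL6/J mice that were 10 days old. Untreated mice, with the condition WT in the labels, gave 1 library, and mice injected with 4OH-tamoxifen (0.2 mg per day for 3 days) gave the other. Each library pooled 8 mice (4 male, 4 female), and the labels put them in batch 1 and batch 2, so treatment, batch and pool of animals cannot be told apart. Both libraries used 10X Genomics version 2 chemistry, which counts unique molecular identifiers (UMIs) near the 3′ end of transcripts.

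The untreated library held 3767 barcodes, whose 18496942 UMIs came to 3455 UMIs and 1635 genes in the median barcode. In the 4OH-tamoxifen library there were 10241 barcodes with 34704167 UMIs, and the median barcode had 2316 UMIs and 1229 genes. After filtering, 3339 untreated and 8558 4OH-tamoxifen cells were kept, and 32 of their barcodes occurred in both libraries. Cells were placed in 8 classes by gates, each asking for at least 2 UMIs of 1 marker gene. Cells of the oligodendrocyte lineage took the latest gate they passed in the order Pdgfra, Gpr17, Enpp6, Mog, and the other gates were Aqp4, C1qa, Cldn5 and Snap25. Cells that passed gates of 2 or more of the 5 lineages were left out, which were 460 untreated cells (13.8%) and 905 4OH-tamoxifen cells (10.6%). The gates held 2588 untreated cells (77.5%) and 6355 4OH-tamoxifen cells (74.3%). Values are UMIs summed over the cells of a gate per 1000000 UMIs of that gate (CPM), with exact Poisson 95% intervals, and ratios of CPM carry exact conditional 95% intervals. These intervals cover counting error only, and no spread between animals or libraries can be given. A UMI is counted once per transcript, so levels were not divided by gene length.

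Markers besides the gate gene were used to check the gates against cell types, and a marker passed when it was at least 2 times higher than in the other gates together in each library, after 10 CPM were added to both. All 7 other markers passed for the Aqp4 gate (astrocytes), the C1qa gate (microglia) and the Pdgfra gate (oligodendrocyte precursors). All 6 passed for the Cldn5 gate (endothelial cells) and the Snap25 gate (neurons). In the Mog gate (oligodendrocytes) 6 of 7 passed, the exception being Mbp, and in the Enpp6 gate 4 of 6 other markers of newly formed oligodendrocytes. In the Gpr17 gate 3 of 6 other markers of committed precursors passed, 1 of which, Vcan, also passed for Pdgfra. The 7 markers of committed precursors summed to 4361 and 6009 CPM there but 8274 and 6210 CPM in the Enpp6 gate, and the 8 of precursors to 6340 and 4275 CPM in the Gpr17 gate. In the Enpp6 gate the 7 markers of newly formed oligodendrocytes summed to less than those of committed precursors, 4862 and 5608 CPM. The Gpr17 and Enpp6 gates are therefore called by their genes only. The Mog gate held 444 untreated and 1393 4OH-tamoxifen cells with medians of 9306 and 6509 UMIs, while the Pdgfra gate held 179 and 470 cells with medians of 3067 and 1831. Depth therefore differed between the gates and, in every gate, was lower with 4OH-tamoxifen.

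As background, cholesterol is made from acetyl groups by way of mevalonate, isoprenoid units, squalene and lanosterol. Transcription of the pathway is raised by SREBP proteins, which SCAP carries from the endoplasmic reticulum when sterols are low and which INSIG proteins hold back when sterols are high. The brain makes its own cholesterol behind the blood-brain barrier. Myelin, the membrane that oligodendrocytes wrap around axons, is rich in cholesterol, and astrocytes are known as a further source of sterols.

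Summed over the 20 synthesis genes, the level in the Pdgfra gate was 1437 CPM (1342 to 1537) untreated and 1129 CPM (1061 to 1200) with 4OH-tamoxifen. It was 1465 CPM (1394 to 1538) and 1293 CPM (1246 to 1341) in the Gpr17 gate. The Enpp6 gate had 2475 CPM (2380 to 2573) and 2722 CPM (2648 to 2797), and the Mog gate 5371 CPM (5302 to 5441) and 5083 CPM (5037 to 5129). The sum was thus highest in the Mog gate in both libraries and rose late in the lineage. Outside the lineage, the Aqp4 gate had 2343 CPM (2278 to 2408) and 1341 CPM (1302 to 1380), and the Snap25 gate 1769 CPM (1696 to 1845) and 1047 CPM (1007 to 1087). The lowest sums were those of the C1qa gate, 462 CPM (427 to 499) and 501 CPM (465 to 540), and of the Cldn5 gate, 605 CPM (564 to 648) and 426 CPM (394 to 460). These last gates changed places between the libraries, as did the Snap25 gate and the Pdgfra and Gpr17 gates.

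**Figure D1:**
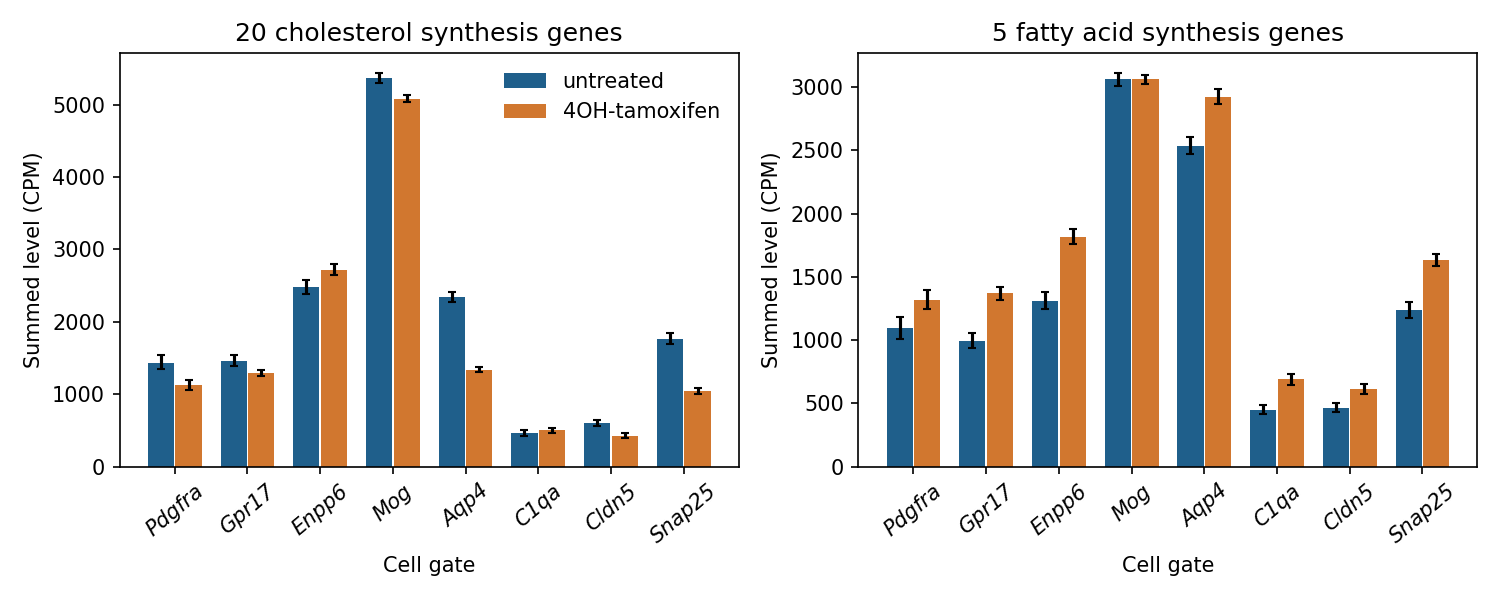
Summed level (CPM) of the 20 synthesis genes (left) and of the 5 fatty acid synthesis genes (right) in each of the 8 gates. Both libraries, untreated and 4OH-tamoxifen, are shown with exact Poisson 95% intervals. For the synthesis genes the Mog gate stands highest in both libraries, at 5371 and 5083 CPM, and the C1qa and Cldn5 gates lowest. For the fatty acid genes the Mog gate has 3062 and 3064 CPM and the Aqp4 gate 2536 and 2926 CPM.

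Along the lineage, the synthesis sum in the Gpr17 gate was 1.02 times that of the Pdgfra gate (0.937 to 1.11) untreated, with an interval that holds 1, and 1.14 times (1.07 to 1.23) with 4OH-tamoxifen. From the Pdgfra to the Enpp6 gate the ratio was 1.72 (1.59 to 1.86) untreated and 2.41 (2.25 to 2.58) with 4OH-tamoxifen. The next step, from Enpp6 to Mog, gave 2.17 (2.08 to 2.26) and 1.87 (1.81 to 1.92). Over the whole course, the Mog gate was 3.74 times (3.49 to 4.01) and 4.50 times (4.23 to 4.79) as high as the Pdgfra gate. Hmgcs1 alone gave much of the sum in the Mog gate, and without it the step from Enpp6 to Mog was 1.82 (1.74 to 1.90) and 1.55 (1.501 to 1.60).

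CPM depends on what else a gate expresses. Across all genes tested, the median ratio of Mog over Enpp6 was 0.790 untreated and 0.797 with 4OH-tamoxifen, or -0.34 and -0.33 on the log2 scale, and for Aqp4 over Snap25 it was 0.732 and 0.748, or -0.45 and -0.42. For Enpp6 over Pdgfra it was 0.959 and 0.954. With a scale set by the median of ratios over genes, the step of the synthesis sum from Enpp6 to Mog was 2.78 and 2.38.

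By single cells the Mog gate was again highest, but not every gate kept its place. The median cell of the Mog gate gave 0.490% of its UMIs to the synthesis genes untreated and 0.487% with 4OH-tamoxifen. In the Enpp6 gate the median was 0.176% and 0.209%, and in the Pdgfra gate 0.132% and 0.107%. The Aqp4 gate, with medians of 0.210% and 0.112%, stood above the Enpp6 gate untreated, and the Gpr17 gate, at 0.130% untreated, just below the Pdgfra gate, both unlike the sums. Among C1qa cells 18.4% untreated and 31.0% with 4OH-tamoxifen had 0 UMIs of any synthesis gene, at median depths of 4002 and 2295 UMIs.

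Of 34 members tested (mean of the gates at least 10 CPM and at least 20 UMIs in each library), 7 were at least 2 times higher in the Enpp6 than in the Pdgfra gate in both libraries, beside 6.39% of all 8080 genes tested. They were Mvd, Fdft1, Lss, Cyp51, Msmo1, Hsd17b7 and Insig1. Lower by the same rule was 1 member, Abca1, beside 11% of all genes, and Ggps1 was too low to be tested. The median ratio of the members tested was 1.38 untreated and 1.84 with 4OH-tamoxifen. For Mog against Enpp6, 0 of 34 members were 2-fold lower in both libraries, beside 9.41% of 7705 genes. In the other direction, counted after the values were seen, 4 members were 2-fold higher, Hmgcs1, Idi1, Sc5d and Npc2, beside 5.87% of genes, and with the median of ratios as the scale 15 were. Abca1 was too low to be tested in these gates. The members' median ratio of Mog over Enpp6 was 1.79 and 1.53. Since the members were selected on these levels, nothing is read from their counts against those of all genes.

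In both libraries 18 of the 20 synthesis genes stood in the order Pdgfra below Enpp6 below Mog, the exceptions being Ggps1 and Lbr, and 17 did so with a scale that leaves out abundant genes, where Acat2 dropped out, and 19 with the median of ratios. Of 9424 genes with a mean of at least 10 CPM over the gates and at least 20 UMIs in each library, 6.74% stood in this order. With the Gpr17 gate between Pdgfra and Enpp6, 7 of the 20 and 3.003% of genes rose at each step, and Idi1, for one, fell from 88.2 to 80.9 CPM from Pdgfra to Gpr17 untreated. The gate with the highest level was the same in both libraries for 28 of the 35 members, beside 69.4% of these genes. It was Mog for 19 of them (6.64% of genes), Aqp4 for 4 (6.18%), Cldn5 for 2 (11.04%), Snap25 for 2 (24.1%) and C1qa for 1 (7.40%). Of the 20 synthesis genes 15 were highest in the Mog gate in both libraries, and 17 were lowest in the C1qa or the Cldn5 gate in both, beside 34.4% of genes. The members were selected on these levels, so nothing is read from these shares.

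**Figure D2:**
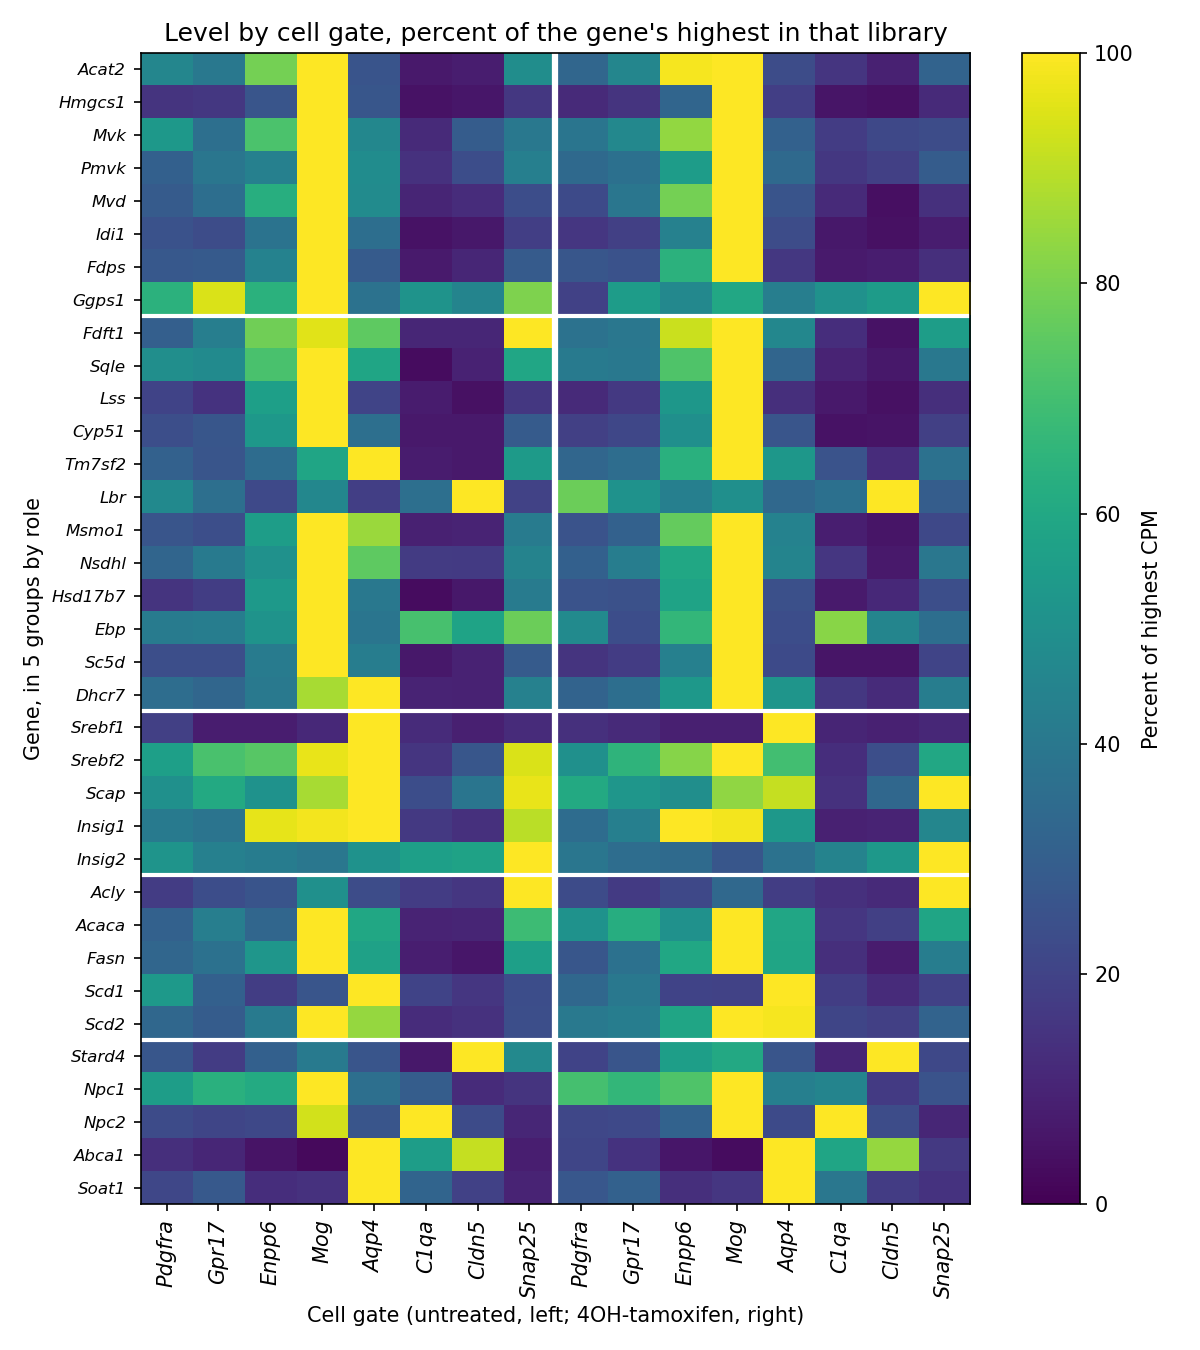
Level of each of the 35 members in the 8 gates of both libraries, shown as percent of the gene's highest CPM in that library. Genes are ordered by role, and colours do not compare levels between genes or between libraries. Most synthesis genes are brightest in the Mog column, while Lbr and Stard4 peak in Cldn5, Acly and Insig2 in Snap25, and Srebf1, Scd1, Abca1 and Soat1 in Aqp4.

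The mevalonate enzymes include Hmgcs1 (ENSMUSG00000093930, GRCm38 chr13:119690379-119708260), which joins acetyl groups into the precursor of mevalonate. Its level was 251 CPM (212 to 295) untreated and 206 CPM (178 to 238) with 4OH-tamoxifen in the Pdgfra gate, and 448 CPM (408 to 490) and 573 CPM (540 to 608) in the Enpp6 gate. In the Mog gate it reached 1687 CPM (1648 to 1726) and 1750 CPM (1723 to 1777), against 83.0 CPM (68.5 to 99.7) and 99.2 CPM (83.4 to 117) in the C1qa gate. The ratio of Mog over Enpp6 for Hmgcs1 was 3.77 (3.43 to 4.15) and 3.05 (2.87 to 3.25). Idi1 (chr13:8885501-8892451), which interconverts the 5-carbon isoprenoid units, rose from 88.2 and 50.1 CPM in the Pdgfra gate to 351 and 318 CPM in the Mog gate. Fdps (chr3:89093588-89101959) makes farnesyl diphosphate, the last compound before the branch to sterols, and had 134 and 90.5 CPM in the Pdgfra gate and 485 and 337 CPM in the Mog gate. Ggps1, which takes farnesyl diphosphate off toward protein prenylation, did not follow the other enzymes: its 16 values lay between 4.36 and 22.6 CPM, highest in the Mog gate untreated, at 21.1 CPM, and in the Snap25 gate with 4OH-tamoxifen, at 22.6 CPM.

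In the sterol branch, Sqle (chr15:59315077-59331192) puts the oxygen into squalene that ring closure needs. Its level was 136 CPM (108 to 169) and 101 CPM (81.8 to 124) in the Pdgfra gate and 274 CPM (259 to 291) and 245 CPM (235 to 256) in the Mog gate. In the C1qa gate it fell to 9.39 CPM (5.00 to 16.05) and 24.3 CPM (16.8 to 33.9), on 13 and 34 UMIs. Cyp51 (chr5:4081145-4104746) removes a methyl group from lanosterol, and its level went from 93.3 and 81.7 CPM in the Pdgfra gate to 386 and 434 CPM in the Mog gate. Msmo1 (chr8:64718139-64733792), which oxidizes further methyl groups, had 115 and 98.1 CPM in the Pdgfra gate, 436 and 385 CPM in the Mog gate, and 371 and 170 CPM in the Aqp4 gate. Lss, which closes the sterol rings, was 2.81 times (1.63 to 5.16) and 4.42 times (2.67 to 7.78) as high in the Enpp6 as in the Pdgfra gate.

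For 7 members the highest gate changed between libraries, among them Ggps1, from Mog to Snap25, and 3 other synthesis genes that went to Mog. Tm7sf2, a sterol reductase, had 65.4 CPM in the Aqp4 gate and 38.5 CPM in the Mog gate untreated, but 19.2 and 36.4 CPM with 4OH-tamoxifen. For Dhcr7, which makes the last reduction of one arm of the pathway, the values were 177 and 153 CPM untreated and 67.8 and 131 CPM with 4OH-tamoxifen. Fdft1, the squalene synthase, had 186 CPM in the Snap25 gate and 177 CPM in the Mog gate untreated, with intervals that overlap, and 94.9 and 170 CPM with 4OH-tamoxifen. Lbr encodes a sterol reductase that is also a receptor of the nuclear lamina, and unlike the rest it was highest in the Cldn5 gate, at 57.4 CPM (45.4 to 71.7) and 46.3 CPM (36.2 to 58.4), and stood at 26.5 and 23.2 CPM in the Mog gate.

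The regulators summed to 209 and 219 CPM in the Pdgfra gate, 287 and 366 CPM in Enpp6, 338 and 396 CPM in Mog and 478 and 438 CPM, their highest, in Aqp4. Most of the step to Enpp6 came from Insig1, which rose from 62.8 and 73.0 CPM to 146 and 206 CPM. Srebf2 rose less, from 52.6 and 51.2 CPM to 68.6 and 83.98 CPM, while Srebf1 and Insig2 were lower in Enpp6 than in Pdgfra in both libraries. Over the 16 class sums, r with the synthesis sum was 0.910 for Insig1, 0.881 for Srebf2, 0.691 for Scap, 0.0686 for Srebf1 and -0.45 for Insig2. Srebf1 (chr11:60199089-60222581), best known for driving fatty acid genes, had 134 CPM (119 to 150) untreated and 166 CPM (153 to 180) with 4OH-tamoxifen in the Aqp4 gate. Its level was 15.5 CPM (11.99 to 19.7) and 14.3 CPM (11.98 to 17.0) in the Mog gate and 16.2 CPM (9.90 to 25.0) and 18.7 CPM (13.8 to 24.8) in the Snap25 gate. Thus Aqp4 exceeded Snap25 for Srebf1 by 8.24 times (5.24 to 13.7) and 8.90 times (6.62 to 12.2), and the Mog gate, with the highest sum of synthesis genes, had one of the lower Srebf1 levels. Srebf2 (chr15:82147181-82205379), best known for driving cholesterol genes, had 92.96 and 71.3 CPM in the Aqp4 gate, 89.98 and 102 CPM in the Mog gate and 14.4 and 13.6 CPM in the C1qa gate. Scap, the carrier of the SREBP proteins, had 64.5 and 58.8 CPM in the Aqp4 gate and 62.4 and 64.6 CPM in the Snap25 gate, with overlapping intervals. Insig1, itself a target of SREBP, had 149 and 203 CPM in the Mog gate, and so showed no step from Enpp6 to Mog at this depth. Insig2 was highest in the Snap25 gate, at 68.9 and 83.3 CPM, and lowest in the Mog gate, at 27.3 and 22.2 CPM.

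Among the fatty acid genes, Scd2 (chr19:44293674-44306864), a desaturase that makes oleic acid, had 2512 CPM (2464 to 2560) and 2520 CPM (2488 to 2553) in the Mog gate and 2116 CPM (2054 to 2178) and 2483 CPM (2430 to 2536) in the Aqp4 gate. Its neighbour on the chromosome, Scd1 (chr19:44394455-44407879), was instead highest in the Aqp4 gate, at 148 CPM (132 to 165) and 153 CPM (140 to 167), against 38.8 and 30.1 CPM in the Mog gate. Aqp4 exceeded Snap25 for Scd1 by 4.24 times (3.07 to 5.97) and 5.18 times (4.07 to 6.68). Fasn, the fatty acid synthase, had 207 and 204 CPM in the Mog gate and 12.5 and 15.7 CPM in the Cldn5 gate. Acly (chr11:100476353-100528000), which splits citrate into acetyl-CoA, was highest in the neurons of the Snap25 gate, at 422 CPM (387 to 460) and 666 CPM (635 to 698), with 211 and 224 CPM in the Mog gate and 98.6 and 120 CPM in the Aqp4 gate. Acetyl-CoA is also the substrate of acetylcholine. Neurons with a UMI of a cholinergic gene, a split chosen after the values were seen, had 505 CPM (450 to 565) and 1052 CPM (998 to 1107) of Acly, and the other neurons 343 CPM (299 to 392) and 207 CPM (182 to 235). Median depths were 6413 and 6058 UMIs in the first group and 7198 and 4067 UMIs in the other. No background share of these UMIs is given, so the split does not show which cells are cholinergic.

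Genes of sterol transport and storage peaked in several gates. Abca1 (chr4:53030787-53159895), which exports cholesterol to lipoproteins, had 239 CPM (219 to 261) and 277 CPM (260 to 295) in the Aqp4 gate, 218 and 234 CPM in the Cldn5 gate and 133 and 163 CPM in the C1qa gate. Its lowest level, 6.11 CPM (3.99 to 8.95) and 9.26 CPM (7.39 to 11.5), was in the Mog gate, where the synthesis sum was highest. Soat1, which esterifies cholesterol for storage, also peaked in the Aqp4 gate, at 87.8 and 80.7 CPM, and was 9.85 times (5.38 to 20.1) and 6.91 times (4.73 to 10.4) as high there as in the Snap25 gate. Npc2, which binds cholesterol inside lysosomes, had 1090 and 914 CPM in the C1qa gate and 1016 and 913 CPM in the Mog gate, and its ratio of Mog over Enpp6 was 4.29 (3.77 to 4.90) and 3.17 (2.91 to 3.46). Npc1, the lysosomal membrane protein that takes cholesterol over from it, had 167 and 150 CPM in the Mog gate and 20.6 and 25.4 CPM in the Cldn5 gate. Stard4, a soluble carrier of sterols, was highest in the Cldn5 gate, at 56.7 CPM (44.7 to 70.8) and 54.2 CPM (43.1 to 67.1).

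Between astrocytes and neurons, the synthesis sum of the Aqp4 gate was 1.32 times (1.26 to 1.39) that of the Snap25 gate untreated and 1.28 times (1.22 to 1.34) with 4OH-tamoxifen. Of 35 members 7 were at least 2 times higher in the Aqp4 gate in both libraries, beside 10.8% of 9354 genes tested, and they were Msmo1, Srebf1, Scd1, Scd2, Npc2, Abca1 and Soat1. Lower by the same rule were Ggps1 and Acly, 2 members, beside 25.7% of genes. The ratio of Acly was 0.233 (0.198 to 0.274) and 0.180 (0.161 to 0.2003).

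Other lipid genes, 22 from lists written down by pathway, were counted by the same rules. These lists too were chosen with earlier results of these data known, so nothing is read from their counts against those of all genes. For Enpp6 over Pdgfra 5 of 15 tested were 2-fold higher, beside 6.39% of all genes, and 2 lower, beside 11%. For Mog over Enpp6 10 of 16 were higher, beside 5.87%, and 1 lower, beside 9.41%. For Aqp4 over Snap25 5 of 17 were higher, beside 10.8%, and 5 lower, beside 25.7%. The sum of the 5 genes of myelin sphingolipid synthesis was 402 and 354 CPM in the Pdgfra gate, 1288 and 1438 CPM in the Enpp6 gate and 4524 and 3599 CPM in the Mog gate. That is a ratio of Mog over Pdgfra of 11.3 (9.90 to 12.8) and 10.2 (9.11 to 11.4), above those of the synthesis sum. Not each gene rose throughout: Sptlc2 had 35.6 and 28.3 CPM in the Pdgfra gate and 32.9 and 30.4 CPM in the Enpp6 gate, and Ugt8a gave more of the Mog sum than the other 4 together untreated. Ugt8a, which makes galactosylceramide, had 146 and 133 CPM in the Pdgfra gate and 2420 and 1755 CPM in the Mog gate, and was chosen for mention after its values were seen.

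The genes most like the synthesis sum were ranked by Pearson's r of log2 of CPM plus 1 over the 16 class sums, which share their libraries and depths. Among 6302 genes outside the lists, Emc7 (0.980), Aacs (0.972) and Shisa4 (0.950) were 3 of the 5 highest. Aacs, an acetoacetyl-CoA synthetase, rose from 15.3 and 14.2 CPM in the Pdgfra gate to 107 and 84.6 CPM in the Mog gate. Among the members themselves, r was 0.991 for Sc5d, 0.987 for Cyp51 and 0.983 for Hmgcs1, which are part of the sum, and -0.76 for Abca1.

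Between the libraries, the mean synthesis sum over the 8 gates was 1991 CPM untreated and 1693 CPM with 4OH-tamoxifen, a ratio of 0.850 (0.836 to 0.864, by a normal approximation on the log scale). By gate the ratio of 4OH-tamoxifen over untreated was lowest in the Aqp4 gate, at 0.572 (0.550 to 0.596), and next in the Snap25 gate, at 0.592 (0.559 to 0.626). It was 0.704 (0.634 to 0.781) in the Cldn5 gate, 0.786 (0.717 to 0.862) in the Pdgfra gate and 0.883 (0.830 to 0.939) in the Gpr17 gate. The Mog gate differed least, with 0.946 (0.931 to 0.962), or 1.01 when cells with over 10% mitochondrial UMIs were left out. The C1qa ratio of 1.08 (0.973 to 1.21) had an interval that holds 1. In the Enpp6 gate the ratio was 1.10 (1.05 to 1.15), but 0.889 with a gate of 1 UMI and 0.992 with cells thinned to 2000 UMIs, so its direction depends on these choices. Markers also differed between the libraries in this gate. The 8 of oligodendrocytes summed to 21870 and 33862 CPM, and the 7 of neurons to 160 and 298 CPM. Lower with 4OH-tamoxifen were the 8 of precursors, with 2690 and 1899 CPM, and the 5 of pericytes, with 147 and 23.1 CPM. Their part in the Enpp6 ratio was not tested.

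In the Aqp4 gate 18 of the 20 synthesis genes were lower with 4OH-tamoxifen on each of 3 scales, the exceptions being Ggps1 and Lbr, beside 48.4% of the 8833 genes tested by total UMIs. The Snap25 gate gave the same count and exceptions, and the Cldn5 gate 16 of 20. In these gates the median ratio over all genes was 0.989 and 1.00. By total UMIs the count was 16 in the Pdgfra gate, 15 in the Gpr17 and Mog gates, 8 in the C1qa gate and 6 in the Enpp6 gate. The share of all genes is given for the Aqp4 gate only, so nothing is read from the counts of the other gates. At least 2-fold lower in the Aqp4 gate were 7 of 34 members tested, beside 0.883% of genes, and all 7 were enzymes. Their ratios were 0.398 (0.317 to 0.499) for Mvd, 0.397 (0.329 to 0.478) for Fdps, 0.495 (0.421 to 0.582) for Sqle and 0.294 (0.216 to 0.397) for Tm7sf2. For the late steps they were 0.459 (0.412 to 0.511) for Msmo1, 0.499 (0.392 to 0.633) for Sc5d and 0.384 (0.325 to 0.454) for Dhcr7. The ratio of the synthesis sum was 0.540 (0.514 to 0.568) in Aqp4 cells with a UMI of Slc7a10 and 0.578 (0.537 to 0.622) in those without, and 0.571 (0.544 to 0.600) and 0.541 (0.505 to 0.581) with and without a UMI of Gfap, splits chosen after the values were seen. Srebf1 in these cells had a ratio above 1, with the levels given above. Markers of other cell types also differed between the libraries in this gate, with 0 markers at 0 in each list: 7 of neurons, led by Stmn2, summed to 277 and 578 CPM, 5 of pericytes, led by Rgs5, to 245 and 112 CPM, and 5 of fibroblasts, led by Col1a2, to 307 and 169 CPM. Their part in the lower synthesis sum was not tested.

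**Figure D3:**
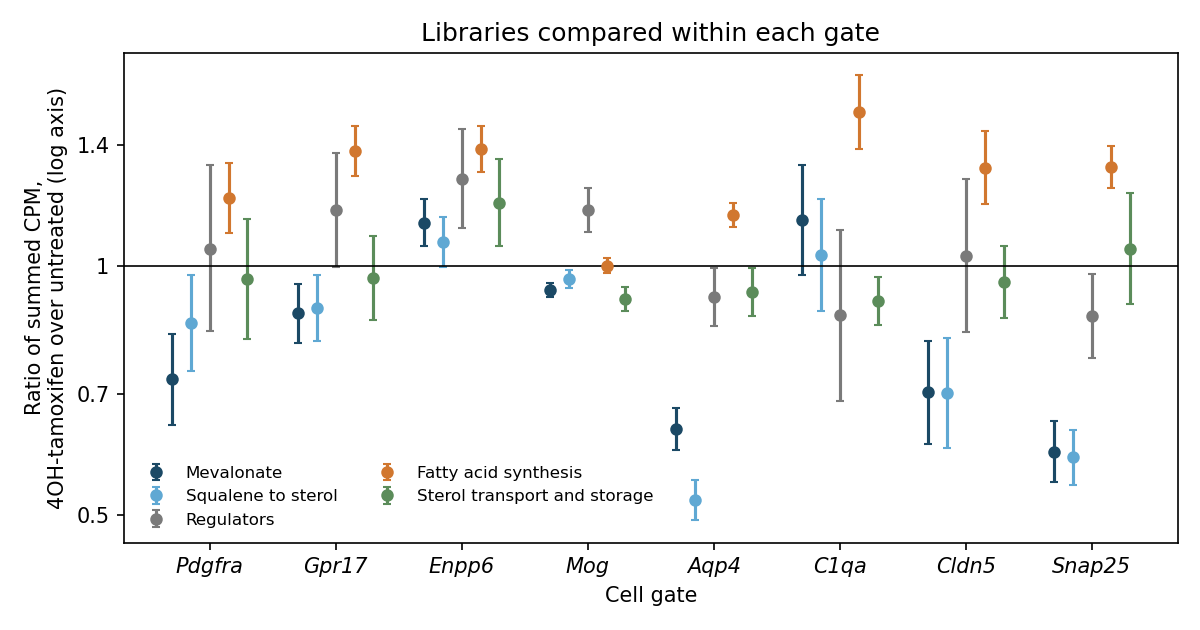
Ratio of 4OH-tamoxifen over untreated CPM by gate for the sums of genes of each role, on a log axis with exact conditional 95% intervals. The synthesis sums lie lowest in the Aqp4 and Snap25 gates (0.572 and 0.592 over all 20 genes), where the fatty acid sums lie above 1.

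Neurons gave a similar count, 7 of 35 members 2-fold lower in the Snap25 gate, beside 1.59% of 9514 genes. These were Mvd, Idi1, Fdps, Tm7sf2, Msmo1, Ebp and Stard4, with the lowest ratio for Fdps, 0.327 (0.256 to 0.415), from 139 to 45.5 CPM. Higher by 2-fold there was Abca1, 1 member beside 2.35% of genes, from 20.3 to 45.9 CPM, a ratio of 2.27 (1.46 to 3.64). In the Cldn5 gate 2 of 31 were lower, Mvd and Fdft1, beside 1.22% of genes, and in the Gpr17 gate 1 of 35, Ebp, beside 3.36%. No member was 2-fold lower in the other gates: 0 of 33 in the Pdgfra gate beside 4.18% of genes, 0 of 35 in Enpp6 beside 2.42%, 0 of 34 in Mog beside 0.211% and 0 of 32 in C1qa beside 1.87%. Acly was higher in the Pdgfra gate, from 74.6 to 153 CPM, a ratio of 2.04 (1.45 to 2.94), as 1 of 33 members beside 3.75% of genes. The 7 neuron markers, led by Snap25 untreated and Stmn2 with 4OH-tamoxifen, summed to 269.7 and 644 CPM in that gate, with 0 at 0, and their part in the Acly ratio was not tested. Sqle in the C1qa gate, with the low UMI counts given above, had a ratio of 2.59 (1.33 to 5.34), as 1 of 32 beside 6.52%.

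The fatty acid sum was higher with 4OH-tamoxifen in 7 gates, by 1.15 times (1.12 to 1.19) in the Aqp4 gate and by 1.54 times (1.39 to 1.70) in the C1qa gate, and the ratio was 1.00 (0.980 to 1.02) in the Mog gate. Scd2 gives most of that sum in the Aqp4 and Mog gates but not in the Snap25 gate (602 and 801 of 1240 and 1633 CPM), and its own ratios were 1.17 (1.13 to 1.22) in the Aqp4 gate, 1.33 (1.22 to 1.45) in the Snap25 gate and 1.00 (0.981 to 1.03) in the Mog gate. Without Scd2 the sum had a ratio of 1.06 (0.971 to 1.15) in the Aqp4 gate and 1.22 (0.996 to 1.49) in the C1qa gate, with intervals that hold 1, as in the Pdgfra, Mog and Cldn5 gates. It was 1.30 (1.20 to 1.42) in the Snap25 gate, 1.23 (1.07 to 1.42) in the Enpp6 gate and 1.16 (1.01 to 1.34) in the Gpr17 gate, with intervals that leave out 1. In the Gpr17 gate the 8 markers of oligodendrocytes summed to 13948 and 20150 CPM, and the 8 of precursors to 6340 and 4275 CPM. Those of the Enpp6 gate are given above, and the part of these markers in the ratios was not tested. In the C1qa gate markers of other cells also differed between the libraries, with 0 at 0. Higher with 4OH-tamoxifen were 8 of astrocytes, led by Aldoc, with a sum of 817 and 1441 CPM, 8 of oligodendrocytes, led by Mbp, with 11821 and 16453 CPM, and 7 of neurons, led by Stmn2, with 166 and 448 CPM. Lower were 5 of pericytes, led by Rgs5, with 269 and 64.2 CPM, 5 of fibroblasts, led by Col1a1 untreated and Igf2 with 4OH-tamoxifen, with 196 and 44.3 CPM, and the border macrophage markers. Their part in the C1qa ratio was not tested. In the Snap25 gate the fatty acid sum rested on Scd2 and Acly, while Fasn was lower with 4OH-tamoxifen, at 0.740 (0.597 to 0.919), as were Acaca, at 0.784 (0.588 to 1.05), and Scd1, at 0.849 (0.576 to 1.26), the last 2 with intervals that hold 1. Acly itself was higher with 4OH-tamoxifen in the neurons with a cholinergic UMI and lower in the others, with the levels given above. Depths also differed between these groups, as given above, so each may not hold the same kinds of cells in both libraries. No fatty acid gene was 2-fold higher in the Aqp4 or the Snap25 gate.

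RNA of other cells was present in the gates. Its part in these results was not tested, apart from a fibroblast alternative for the Pdgfra gate. The 8 markers of oligodendrocytes summed to 92579 and 84283 CPM in the Mog gate and to 13457 and 16624 CPM in the Aqp4 gate, where Mbp was the highest of them, with 0 markers at 0 in either gate. In the Pdgfra gate the 5 fibroblast markers summed to 1688 and 351 CPM, with 0 at 0 and led by Col1a1 untreated and Col1a2 with 4OH-tamoxifen. An alternative left out the cells of this gate with a UMI of a fibroblast gene. Over 13 alternatives, that one among them, the library ratio of the synthesis sum in the Pdgfra gate, 0.786, ranged from 0.756 to 0.837. The 5 pericyte markers in the Cldn5 gate summed to 1907 and 2086 CPM, led by Rgs5, and the 5 border macrophage markers in the C1qa gate to 651 and 425 CPM, led by Pf4, again with 0 at 0. Erythroid markers, 4 genes led by Hbb-bs, summed to between 132 and 230 CPM in the 8 gates, and 4 ependymal markers to at most 52.3 CPM.

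Promoters are shown because many synthesis genes moved together over the lineage. RefSeq sequences of GRCm38.p6, from 250 bases before to 50 after each start, were matched by symbol for 28 of the 35 members and 17 of the 20 synthesis genes; the promoter set used held none under the symbols Fdps, Fdft1, Sqle, Scd1, Scd2, Stard4 and Npc1. A set of 5 short motifs was searched on both strands. CCAAT, the letters that the factor NF-Y is known to bind, was in 16 of the 17 synthesis genes, all but Acat2, in 8 of the 11 other members matched, and in 41.1% of all 27025 genes. GGGCGG, a GC box known for Sp1, was in 15 of 17, in 9 of the 11 other members and in 38.2% of genes. TCACNCCAC, a form of the sterol element, was in 1 of 17, Hmgcs1, and in 1.44% of genes, and its shorter form CACNCCAC, which lies inside it, in 2 of 17 and 7.12%. CACGTG, an E box, was in 3 of 17 and 8.09%. A match is a description of letters and not of binding, and a missing match says only that these letters are not in the window. The shares of all genes were not limited to genes expressed in these cells, so nothing is read from the members' counts against them.

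Of the 9 synthesis genes that were 2-fold higher at a step of the lineage, 8 had a single RefSeq start, and in 5 of these a run of at least 100 bases outside every annotated exon held a match. They are printed 5′ to 3′ on the strand of the gene, with matches to CCAAT or its reverse complement ATTGG, and in Hmgcs1 to TCACNCCAC, in capitals. The windows are chr13:119690101-119690350 (plus strand) for Hmgcs1, chr8:122443423-122443672 (minus) for Mvd, chr10:76531355-76531587 (plus) for Lss, chr1:169969242-169969408 (minus) for Hsd17b7 and chr9:42264301-42264550 (minus) for Sc5d.
Hmgcs1: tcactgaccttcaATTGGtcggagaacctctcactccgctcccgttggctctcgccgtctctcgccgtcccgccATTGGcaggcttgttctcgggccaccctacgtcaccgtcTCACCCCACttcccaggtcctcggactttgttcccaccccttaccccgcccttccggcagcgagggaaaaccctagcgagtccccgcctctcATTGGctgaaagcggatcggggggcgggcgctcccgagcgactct
Mvd: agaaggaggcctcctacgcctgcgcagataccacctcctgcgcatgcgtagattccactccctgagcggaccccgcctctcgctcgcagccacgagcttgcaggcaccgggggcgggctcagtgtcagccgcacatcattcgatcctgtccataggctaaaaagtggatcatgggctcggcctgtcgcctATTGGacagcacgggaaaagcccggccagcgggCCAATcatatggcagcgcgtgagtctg
Lss: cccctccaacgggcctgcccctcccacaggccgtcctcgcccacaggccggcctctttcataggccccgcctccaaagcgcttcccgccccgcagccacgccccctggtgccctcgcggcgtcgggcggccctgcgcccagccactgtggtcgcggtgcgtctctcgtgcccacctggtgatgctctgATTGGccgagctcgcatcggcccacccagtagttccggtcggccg
Hsd17b7: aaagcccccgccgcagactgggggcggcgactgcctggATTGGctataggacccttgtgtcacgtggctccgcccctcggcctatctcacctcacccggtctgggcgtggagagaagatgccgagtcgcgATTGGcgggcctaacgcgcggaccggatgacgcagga
Sc5d: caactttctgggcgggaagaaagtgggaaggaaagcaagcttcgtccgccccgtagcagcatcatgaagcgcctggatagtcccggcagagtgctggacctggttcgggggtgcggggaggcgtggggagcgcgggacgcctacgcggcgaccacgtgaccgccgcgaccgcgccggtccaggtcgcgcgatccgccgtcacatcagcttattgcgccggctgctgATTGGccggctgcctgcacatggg
In Hmgcs1 the sterol element began 137 bases before the start, between CCAAT matches that began at 176 and 45 bases, with another at 237. The match nearest the start began 27 bases before it in Mvd, 62 in Lss, 73 in Hsd17b7 and 24 in Sc5d.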

How the data were processed

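Single-cell libraries of 2 conditions, 1 library each, were analysed. The deposited matrices hold raw UMIs, 1 count for each gene in each barcode, which the authors obtained with bcl2fastq 2.18.0.12 and Cell Ranger 2.2.0 on the mm10 reference. Python 3.11.15, scanpy 1.11.5, numpy 2.4.6, scipy 1.17.1 and pandas 2.3.3 were used. Cells called doublets by Scrublet at its automatic threshold (6 untreated, 544 with 4OH-tamoxifen), with under 800 genes, over 50 hemoglobin UMIs or over 20% mitochondrial UMIs were removed. The members and lists were chosen with earlier results of these data known. Named are the 3 members of each role with the highest mean CPM, and those with a ratio of Aqp4 over Snap25 of at least 4 or at most 0.25 in both libraries. The rule also names those whose highest gate is not the commonest of their role, and, between libraries, those 2-fold apart with an interval that leaves out 1. Genes 2-fold apart between gates and those outside this rule (Ggps1, Lss, Acaca and the other lipid genes) were named after their values were seen. So were Tm7sf2, Dhcr7, Fdft1 and Sc5d where levels over gates are described, since the rule names them only between libraries. Of the 5 genes most like the synthesis sum, 2 are not reported here. Shares of all genes in the same order or with the same highest or lowest gate were added after the counts were seen. The intervals were checked on simulated Poisson counts, which covers their calculation only and holds no spread between cells. No test between conditions was made, and 13 alternatives were tried.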

Additional observations from a re-analysis of the deposited data

Results flagged for a closer look

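The synthesis sum differed between gates under the same comparison of libraries. Its ratio of 4OH-tamoxifen over untreated was 1.10 in the Enpp6 gate and 0.572 in the Aqp4 gate, each with an interval that leaves out 1, but the Enpp6 value turned to 0.889 with a gate of 1 UMI and 0.992 with cells thinned to 2000 UMIs. Markers of other cells differed between the libraries in both gates, with the sums given above, and their part was not tested. Sqle likewise had a ratio of 0.495 in the Aqp4 gate and 2.59 in the C1qa gate. With 1 library per condition these differences between gates were not tested.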

How the results depend on the processing

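The synthesis sum kept its direction for Enpp6 over Pdgfra in 13 alternatives and for Mog over Enpp6 and Aqp4 over Snap25 in 12, the only pairs of gates tried, and for most ratios between libraries. The ratio of 4OH-tamoxifen over untreated in the Enpp6 gate, 1.10, was 0.889 with a gate of 1 UMI and 0.992 with cells thinned to 2000 UMIs, and 1.00 with the mean of each cell's CPM. In the Mog gate it went from 0.946 to 1.01 with at most 10% mitochondrial UMIs. In the C1qa gate, where the interval of 1.08 holds 1, it ranged from 0.932 to 1.19. The Gpr17 ratio of 0.883 came close to 1, with 0.989 at 3 gate UMIs, 0.979 at 1200 genes and 0.978 in thinned cells. The Cldn5 ratio of 0.704 was 0.787 with 1 gate UMI and 0.786 with cells of 2 lineages kept. The Mog ratio also left its interval at 0.963 with 1 gate UMI, 0.929 with 3, 0.972 by the mean of each cell's CPM and 0.994 on the median of ratios scale. The cause was not tested.

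Further ratios that left their interval are given with the untreated value before that with 4OH-tamoxifen. With 1 gate UMI, Enpp6 over Pdgfra was 1.89 and 2.03, Mog over Enpp6 2.04 and 2.21, Aqp4 over Snap25 untreated 1.398, and the mean ratio of libraries 0.828. With 3 gate UMIs, Enpp6 over Pdgfra was 1.90 and 2.70 and Mog over Enpp6 1.98 and 1.71. A minimum of 1200 genes gave 1.47 for Aqp4 over Snap25 with 4OH-tamoxifen, 0.873 for the mean ratio and 0.638 for the library ratio of the Aqp4 gate. At most 10% mitochondrial UMIs gave 2.04 for Mog over Enpp6 untreated, 1.59 and 1.43 for Aqp4 over Snap25, and library ratios of 0.894 over all gates, 0.599 in Aqp4 and 0.667 in Snap25. By the mean of each cell's CPM, Enpp6 over Pdgfra and Mog over Enpp6 were 2.11 and 2.11 with 4OH-tamoxifen, Aqp4 over Snap25 1.42 and 1.35, and the mean ratio 0.835. Thinned cells gave 1.88 for Enpp6 over Pdgfra and 2.00 for Mog over Enpp6 untreated, and 1.45 and 1.45 for Aqp4 over Snap25. Without abundant genes in the total, Mog over Enpp6 was 2.05 and 1.79 and Aqp4 over Snap25 with 4OH-tamoxifen 1.35. On the median of ratios scale, Enpp6 over Pdgfra was 1.91 and 2.68, Mog over Enpp6 2.78 and 2.38, Aqp4 over Snap25 1.73 and 1.57, the mean ratio 0.886 and the Enpp6 library ratio 1.16, and 15 members were 2-fold higher in Mog than in Enpp6 in place of 4. Of the splits of the Aqp4 gate, chosen after seeing the data, cells with a Slc7a10 UMI gave 0.540 and cells without a Gfap UMI 0.541. The cause of these shifts was not tested.

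The count of members higher in Enpp6 than Pdgfra ranged from 5 to 10, that for Aqp4 over Snap25 from 6 to 10, and that of members with the same highest gate from 23 to 31. Of 504 levels of the named members under the alternatives, 363 stayed within their interval and 141 did not. With 1 library per condition no paired analysis was possible, and no alternative could leave out a library. Depth limits the genes under 10 CPM, such as Ggps1 and Abca1 in some gates, and the C1qa and Cldn5 gates, whose cells hold few UMIs of the synthesis genes.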
